A study of Saccharomyces cerevisiae with 6 samples.

Results

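The Ras and protein kinase A pathway of *Saccharomyces cerevisiae* was described here through 9 genes, *RAS1*, *RAS2*, *CDC25*, *CYR1*, *PDE1*, *PDE2*, *BCY1*, *TPK2* and *TPK3*, out of 5656 genes that the array measured with a probe set annotated to a single gene. A probe set is a group of short oligonucleotides that together read a transcript. The members were taken by gene symbol for their known role, with earlier results of these data known. Each was read from its brightest probe set, and all 9 were found. They have 17 probe sets among them, 9 of which belong to *CYR1*.

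In this pathway the small GTP-binding proteins Ras1p and Ras2p, loaded with GTP by the exchange factor Cdc25p, stimulate adenylate cyclase, which makes cyclic AMP. Cyclic AMP releases the catalytic subunits of protein kinase A from their regulatory subunit, and phosphodiesterases break it down. In yeast the pathway is known for linking glucose supply to growth. Active kinase holds down stress genes and the build-up of storage carbohydrates.

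RNA came from the strain S288C, haploid and of mating type alpha, grown in synthetic dextrose medium. There were 3 independent cultures given 70 μM pterostilbene, a dimethylether analog of resveratrol, and 3 given the solvent dimethyl sulfoxide (DMSO) at 0.25%. The labels call 70 μM the IC50 concentration, a dose chosen for its inhibition of growth. Additions were made at an optical density of 0.2 and cells were collected at 0.5, so this is a single strain, dose and harvest density. The time from addition to harvest may have differed between the groups. Slower growth or a later harvest cannot be told apart from other effects of the compound, nor can a difference in solvent content. The compound came from a stock of 0.5 M in DMSO, and the solvent content of the pterostilbene cultures is not given in the labels. No further DMSO is described for these cultures, so their content may have been below 0.25%. In RNA from whole cultures, fewer cells with a transcript and less of it per cell cannot be told apart either.

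Values are signals of the Affymetrix GeneChip Yeast Genome S98 array in the arbitrary units of the Affymetrix software, and the software had scaled the arrays to nearly equal trimmed means. Differences are given on the log2 scale as pterostilbene minus control, with the standard error (SE) from limma's moderated test and a p adjusted by the Benjamini-Hochberg method over all 9275 tested probe sets. Rose and fell are used of genes with this adjusted p under 0.05. Control arrays had median signals of 119 to 123, those with pterostilbene 162 to 170.2, and the median gene had a log2 difference of 0.22. With quantile normalization this shift was -0.13, with arrays centred on their medians -0.23, and with arrays centred on 7 reference genes 0.48. With the signals as deposited, 2 of these 7 reference genes fell and none rose, and their median log2 difference was -0.26. In 5 of them all pterostilbene signals were below all control signals. Control probe sets for poly-A RNAs of a labelling kit were 5.11-fold higher on the pterostilbene arrays, those for ribosomal RNA were 6.81-fold higher, and those for hybridization controls differed by 1.06-fold. The part of these controls in the members' differences was not tested, and all directions are relative to the other transcripts measured. The 4 alpha-specific markers had signals of 1580 to 12613 in the controls and all fell, to between 53.9 and 5478. The 7 a-specific markers had control signals of 0.8 to 261, and 4 rose while 1 fell. The part of this shift in the members' differences was not tested.

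Of the 9 members, *PDE2* and *PDE1* rose, *RAS1* fell and the other 6 did not pass. The rise of *PDE2*, to 3.52 times its control signal, was the largest of these changes and held under every alternative that was run. *RAS1* dropped to 0.53 times its control signal, while *PDE1* rose by 1.39-fold, a call that was lost under several alternatives. The background was high on these arrays. Of all genes, 35.8% rose and 18.4% fell, and 2 rises and 1 fall among 9 members are no larger shares than these. The 3 pterostilbene signals lay above the 3 control signals for 2 members, where 44.2% of all genes had this pattern, and below them for 2 members, *RAS1* and *TPK3*, where 24.5% did. The median log2 difference of the members was 0.04.

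**Figure D1:**
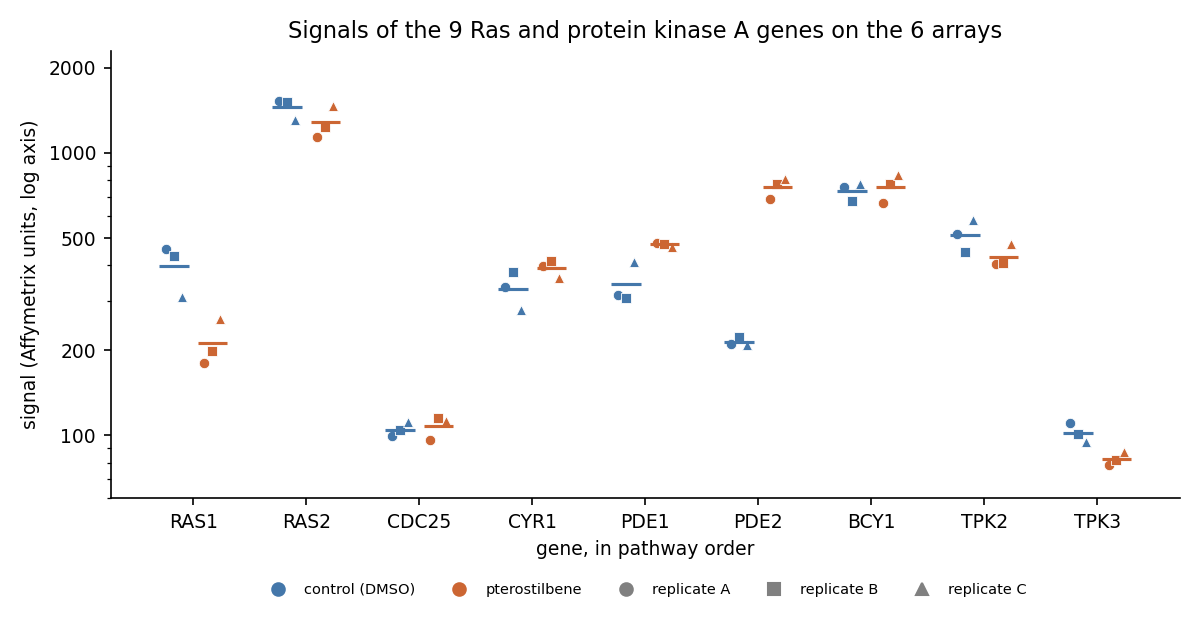
Signal of each member on each of the 6 arrays, on a log axis in Affymetrix units, with bars at the arithmetic mean of 3 arrays. *PDE2* sits between 685 and 808.5 with pterostilbene and between 209.6 and 222 in the controls, whereas the groups overlap for *RAS2*, *CDC25*, *CYR1*, *BCY1* and *TPK2*.

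*RAS1* and *RAS2* encode the Ras proteins of yeast, which share their essential function. The signal of *RAS1* was 458, 432 and 309 on control arrays A, B and C, and 180.4, 199 and 259 on pterostilbene arrays A, B and C. All pterostilbene signals were below all control signals, with control C and pterostilbene C closest to each other. Control arrays averaged 400 ± 79.6 and pterostilbene arrays 213 ± 41.0 (SD, n = 3 each), for a log2 difference of -0.90 (SE 0.22, adjusted p = 0.018). Of all genes, 5.34% had a lower difference than *RAS1*. Its direction held without any single array, but the adjusted p rose to 0.056 without control A, 0.055 without control B, 0.058 without pterostilbene A and 0.061 without pterostilbene B.

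*RAS2* had signals of 1533, 1518 and 1309 in the controls and of 1135, 1240.3 and 1471 with pterostilbene. The groups overlapped, since pterostilbene C lay above control C. The log2 difference was -0.19 (SE 0.14, adjusted p = 0.32), with a 95% interval from -0.53 to 0.16. Centring on the array medians gave -0.64 (adjusted p = 0.0080), and centring on reference genes gave 0.07 (adjusted p = 0.66), so no direction is given for *RAS2*.

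The ratio of *RAS2* to *RAS1* on the same array does not depend on a scaling factor of the array. Its log2 value was 1.74, 1.81 and 2.08 in the controls and 2.65, 2.64 and 2.51 with pterostilbene. Every pterostilbene array had the higher ratio. The mean increased by 0.72 (exact two-sided permutation test, p = 0.1, adjusted p = 0.15 over 3 gene pairs), where 0.1 is the smallest p that 3 arrays against 3 allow. This test therefore could not have passed 0.05 for any of the gene pairs.

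*CDC25* encodes the exchange factor that loads Ras with GTP. Its signal was 99.2, 104.5 and 111 in the controls and 96.3, 116 and 112.5 with pterostilbene, and the pterostilbene values spanned the control values. The log2 difference was 0.04 (SE 0.12, adjusted p = 0.80), with a 95% interval from -0.25 to 0.33. *CDC25* had -0.41 after median centring (adjusted p = 0.026) and -0.46 after quantile normalization (adjusted p = 0.024), where the median gene was at -0.23 and -0.13. Reference gene centring gave 0.30 for *CDC25* (adjusted p = 0.044), where the median gene was at 0.48.

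*CYR1* encodes adenylate cyclase, the only enzyme that makes cyclic AMP in this yeast. The brightest of its 9 probe sets gave signals of 335, 380 and 278 in the controls and 398, 415 and 361 with pterostilbene. Control B lay above pterostilbene C, so the groups overlapped. The log2 difference was 0.25 (SE 0.15, adjusted p = 0.21), with a 95% interval from -0.11 to 0.62. The next brightest probe set gave 220.4, 206 and 183 in the controls and 253, 295 and 310.5 with pterostilbene. Here the groups were separate, with a log2 difference of 0.49 (SE 0.13, adjusted p = 0.025). The rule of the brightest probe set thus decided whether *CYR1* counted as risen, and 3 members rose when the next brightest was used, a choice made after the values were seen.

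The other probe sets of *CYR1* were dimmer. Beside the brightest there were 8, of which 1 rose, 1 fell and 6 were not called. The fall was in the eighth in order of brightness, from 16.5, 14.3 and 34.9 in the controls to 2.6, 2.4 and 1.0 with pterostilbene. These pterostilbene signals lay within the range of 0.7 to 8.8 that the control probe sets for mouse cytokines, which yeast lacks, gave on these arrays, so the size of its log2 difference, -3.46 (SE 0.51, adjusted p = 0.0033), is that of a signal at the background. The dimmest probe set was at 0.3 to 5.3 on all arrays. An average over all 9 probe sets, these dim ones included, had a log2 difference of -0.30 (SE 0.21, adjusted p = 0.29). Which part of the transcript each probe set reads is not given in the sources used here.

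**Figure D2:**
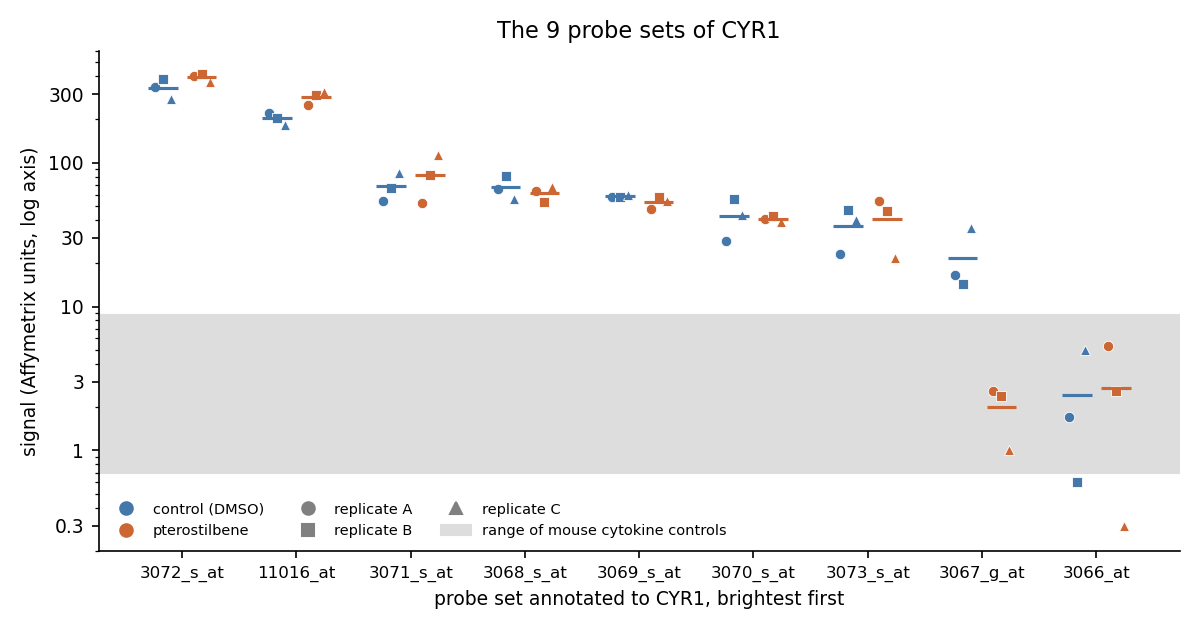
Signals of the 9 probe sets annotated to *CYR1* on the 6 arrays, on a log axis in Affymetrix units, with bars at the mean of 3 arrays and a grey band at 0.7 to 8.8, the range of 4 control probe sets for mouse cytokines. The groups separate for the second and the eighth in order of brightness, which go in opposite directions, and the eighth reaches the grey band with pterostilbene.

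*PDE2* encodes the high-affinity phosphodiesterase of cyclic AMP and *PDE1* the low-affinity enzyme. Signals of *PDE2* were 211.5, 222 and 209.6 in the controls and 685, 779 and 808.5 with pterostilbene. The lowest pterostilbene signal was far above the highest control signal. The control mean was 214 ± 6.85 and the pterostilbene mean 758 ± 64.4 (SD over 3 arrays each), for a log2 difference of 1.82 (SE 0.11, adjusted p = 2.2e-04). Among all genes 93.6% had a smaller difference. Over 18 alternatives in scaling, filtering, test and arrays the log2 difference lay between 1.37 and 2.08, with adjusted p between 1.1e-06 and 0.0071.

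For *PDE1* the signals were 314, 306 and 412 in the controls and 481, 477 and 465 with pterostilbene. All pterostilbene signals were above all controls, and control C was the closest to them. The log2 difference was 0.48 (SE 0.14, adjusted p = 0.039), near the middle of all genes, 62.8% of which had a smaller difference. After quantile normalization it was 0.19 (adjusted p = 0.32) and after median centring 0.02 (adjusted p = 0.91). The call also ended without control A (adjusted p = 0.11), control B (0.11), pterostilbene A (0.099), pterostilbene B (0.10) or pterostilbene C (0.074), and it was kept only without control C.

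On the same array, the log2 ratio of the *PDE2* signal to the *PDE1* signal was -0.57, -0.46 and -0.98 in the controls and 0.51, 0.71 and 0.80 with pterostilbene. The ratio was thus higher on every pterostilbene array, by 1.34 on average (exact two-sided permutation test, p = 0.1, the smallest possible, adjusted p = 0.15). The signals of different probe sets are not on a common scale, so only the change in this ratio is read and not its sign.

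**Figure D3:**
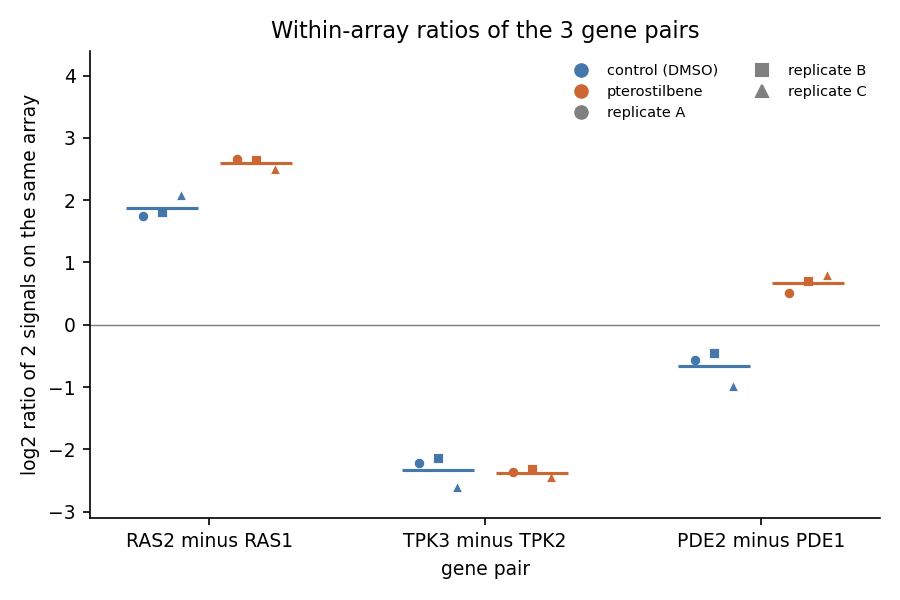
Log2 ratio of the signals of 2 genes on the same array, for the pairs *RAS2* and *RAS1*, *TPK3* and *TPK2*, and *PDE2* and *PDE1*, with each of the 6 arrays as a point and bars at the group means. The ratio was higher with pterostilbene on all arrays for the Ras and phosphodiesterase pairs, by 0.72 and 1.34, and overlapped between groups for the kinase pair.

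*BCY1* encodes the regulatory subunit that holds protein kinase A inactive. Signals were 756, 677 and 774 in the controls and 664, 776 and 835 with pterostilbene, and the groups overlapped widely. The log2 difference was 0.04 (SE 0.13, adjusted p = 0.82), with a 95% interval from -0.28 to 0.36, and -0.41 after median centring (adjusted p = 0.027).

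*TPK2* and *TPK3* encode catalytic subunits of the kinase. The signal of *TPK2* was 517, 446 and 577 in the controls and 406, 409 and 474 with pterostilbene, where pterostilbene C exceeded control B. Its log2 difference was -0.25 (SE 0.14, adjusted p = 0.18), with a 95% interval from -0.59 to 0.09. *TPK3* was at 110.5, 102 and 94.5 in the controls and at 78.9, 82.1 and 87.5 with pterostilbene. Each pterostilbene signal was below each control, but the log2 difference of -0.30 (SE 0.11, adjusted p = 0.063) did not pass. It passed in 6 of 18 alternatives, which included the floor (adjusted p = 0.030), the methods' t-test (0.045) and array weights (0.011). The array weights were 4.78 for pterostilbene B, 0.85 for A and 0.31 for C. *TPK3* did not pass when any single array was left out (adjusted p = 0.059 to 0.19). Both had lower values after quantile normalization, where the median gene was at -0.13. *TPK2* had -0.51 (adjusted p = 0.021) and *TPK3* -0.84 (adjusted p = 0.0016) after quantile normalization, and after reference gene centring they had 0.0049 (adjusted p = 0.98) and -0.04 (adjusted p = 0.74).

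The log2 ratio of *TPK3* to *TPK2* was -2.23, -2.13 and -2.61 in the controls and -2.36, -2.32 and -2.44 with pterostilbene. These values overlapped, and the mean differed by -0.05 (exact two-sided permutation test, p = 0.8, adjusted p = 0.8). After quantile normalization, which is not a single factor per array, the mean differed by -0.33 (exact two-sided permutation test, p = 0.1, the smallest possible).

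**Figure D4:**
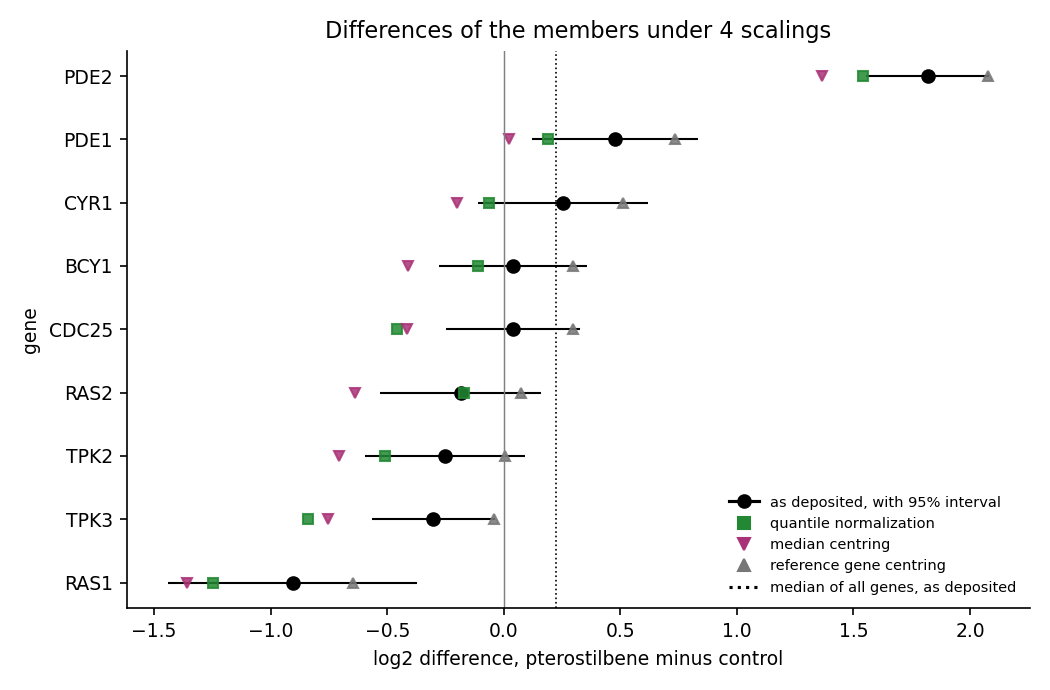
Log2 difference of each member, pterostilbene minus control, with the signals as deposited (circle, with its 95% interval) and under 3 other scalings, and a dotted line at 0.22, the median of all genes. *PDE2* is above 0 and *RAS1* below 0 under each of the 4 scalings, whereas *CYR1*, *BCY1*, *CDC25*, *RAS2* and *TPK2* change sign between them.

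The spread among replicates was ordinary for most members. The SD of log2 signals within a group had a median of 0.16 over the members and of 0.16 over all genes, with the highest value, 0.29, in *RAS1* and the lowest, 0.094, in *PDE2*. By root mean square difference of log2 signals over the 6 arrays, each gene centred on its own mean, the genes most like *PDE2* were *TOH1* (0.058), *TPO4* (0.061) and *RAD2* (0.062), whose signals changed by 3.64-fold, 3.45-fold and 3.46-fold. Those most like *RAS1* were *BNA3* (0.076), *COQ2* (0.092) and *POL1* (0.093). With 2 groups this likeness mostly reflects a similar difference between them.

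Among 10 regulators upstream of the members, 5 rose, 2 fell and 3 were not called, where 35.8% of all genes rose and 18.4% fell. Their median log2 difference was 0.53 against 0.22 for all genes. *GPR1*, the glucose receptor of the pathway, went from 382, 370 and 328.5 to 584, 660.2 and 630.0, a log2 difference of 0.80 (SE 0.11, adjusted p = 0.0027), and rose under every alternative. *GPA2*, the G protein alpha subunit that acts with it, had 0.32 (adjusted p = 0.029), *IRA1*, an inhibitor that returns Ras to its GDP form, 0.40 (adjusted p = 0.035), *GPB1*, a kelch protein of the pathway, 0.86 (adjusted p = 0.041), and *SDC25*, a homolog of *CDC25*, 0.71 (adjusted p = 0.011). These last 4 did not pass after quantile normalization or median centring, and the sign turned for *IRA1* and *GPA2* after median centring and for *SDC25*, whose signals were only 11.7 to 22.9, after quantile normalization. With a floor at a signal of 22.7 the log2 difference of *SDC25* was 0.0042 (adjusted p = 0.74), and with trend and robust moderation it was not called (adjusted p = 0.091). *IRA1* passed only without control C when single arrays were left out, *GPA2* only without control C or pterostilbene C, and *GPB1* only without control B or control C. The genes that fell were *SRV2*, the cyclase-associated protein, with -0.47 (adjusted p = 0.028), and *ASC1*, with -0.52 (adjusted p = 0.0078), and neither passed after quantile normalization. *SRV2* did not pass after reference gene centring (adjusted p = 0.19) either. When single arrays were left out, *SRV2* passed only without control B, whereas *ASC1* passed each time.

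*IRA2*, the other Ras inhibitor gene, had 11 probe sets. The brightest gave 534, 110 and 592 in the controls and 1217, 1048 and 1276 with pterostilbene. Control B stood far below the other controls, and the log2 difference of 1.85 (SE 0.67) did not pass (adjusted p = 0.068), while without control B it was 1.07 and passed (adjusted p = 0.0069). Of the 10 other probe sets 8 rose and 2 did not pass. The 5 rises upstream leave out *IRA2*, which rose when its probe sets were averaged (log2 difference 1.28, adjusted p = 0.0048).

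Ras proteins work at the membrane only after lipids have been attached to them. Of 6 genes of this modification, 3 fell, none rose and 3 did not pass, where 18.4% of all genes fell and 35.8% rose. Their median log2 difference was -0.54, below that of all genes. *STE14*, the methyltransferase that caps prenylated proteins, had signals of 763, 720.2 and 699 in the controls and 345, 340.4 and 379 with pterostilbene, a log2 difference of -1.04 (SE 0.10, adjusted p = 8.3e-04). *RAM2*, a subunit of farnesyltransferase, had -0.61 (adjusted p = 0.0039) and *SHR5*, a subunit of the Ras palmitoyltransferase, -0.92 (adjusted p = 0.030). *STE14* and *RAM2* fell under every alternative, whereas *SHR5* did not pass after reference gene centring (adjusted p = 0.062), with a floor on low signals (0.051), in the methods' t-test (0.070), or without control A, control C, pterostilbene A or pterostilbene B. After quantile normalization all 6 fell, *RAM1*, *ERF2* and *RCE1* included, where 30.4% of all genes fell, and after median centring all 6 fell as well, where 39.0% of all genes did.

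Of 11 kinases and other factors listed as downstream of protein kinase A, 7 rose, none fell and 4 did not pass. Among all genes 35.8% rose. The median log2 difference was 0.80, against 0.22 for all genes, and the list was chosen with earlier results known. *ADR1*, an activator of genes for nonfermentable carbon, rose from 24, 11.1 and 4.2 to 183.5, 177 and 231, a log2 difference of 4.24 (SE 0.63, adjusted p = 0.0034) that starts near the bottom of the scale. *GIS1*, a transcription factor of the entry into stationary phase, had 1.91 (adjusted p = 7.3e-04), *IGO1*, of the Rim15p branch, 1.21 (adjusted p = 7.2e-04), and *SFL1*, a repressor, 1.20 (adjusted p = 0.0015), all of which kept their call under every alternative. *YAK1*, *SOK2* and *RIM15* rose as well, by 0.79, 0.80 and 0.90, and all 3 probe sets of *YAK1* rose. *SOK2* did not pass after median centring (adjusted p = 0.088), nor did *RIM15* after quantile normalization (0.11) or median centring (0.13). *MSN2* (0.20, adjusted p = 0.22) and *MSN4* (0.26, adjusted p = 0.17), the general stress factors that the kinase keeps out of the nucleus, did not pass, nor did *IGO2* (0.27) and *SCH9* (0.69). For *SCH9*, pterostilbene C was at 205, within the controls, against 453 and 413 on the other pterostilbene arrays, and without pterostilbene C the log2 difference was 1.05 (adjusted p = 0.0050). After quantile normalization 6 of the 11 rose, where 21.6% of all genes did, and after median centring 5, where 19.3% did.

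Of 4 metabolic enzymes that the kinase phosphorylates, 3 rose, where 35.8% of all genes rose. *NTH1*, neutral trehalase, had a log2 difference of 0.80 (adjusted p = 0.0046), *PFK26*, which makes fructose 2,6-bisphosphate, 0.94 (adjusted p = 0.0054) and *FBP1*, of gluconeogenesis, 0.73 (adjusted p = 0.027), from control signals of only 11.9 to 15.8 and not without control B, control C, pterostilbene B or pterostilbene C. *CDC19*, pyruvate kinase, had -0.27 (adjusted p = 0.080). None of the 3 rises passed after median centring, and *NTH1* alone passed after quantile normalization.

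Genes that active protein kinase A is known to hold down were higher. Of 12, 11 rose, none fell and 1 did not pass, with a median log2 difference of 2.0, where 35.8% of all genes rose. *HSP12*, of a membrane-associated stress protein, went from 70.9, 68.0 and 53.3 to 3721, 1986 and 3936, the largest change of the list. *GAC1*, a regulator of glycogen synthesis, had 2.69 (adjusted p = 0.0013), *SSA3*, a stress-induced Hsp70, 2.59 (adjusted p = 4.6e-04), and *HSP26*, a small heat shock protein, 3.32 (adjusted p = 1.8e-04). After quantile normalization 10 rose and 1 fell, where 21.6% of all genes rose and 30.4% fell. After median centring 9 rose and 1 fell, where 19.3% of all genes rose and 39% fell. *GPH1*, glycogen phosphorylase, was against them, at 182, 208 and 161 in the controls and 144, 163 and 140.0 with pterostilbene, a log2 difference of -0.30 (adjusted p = 0.12), and fell after quantile normalization and median centring. Other factors also control these genes, and several of them were known to rise on these arrays when the list was written.

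**Figure D5:**
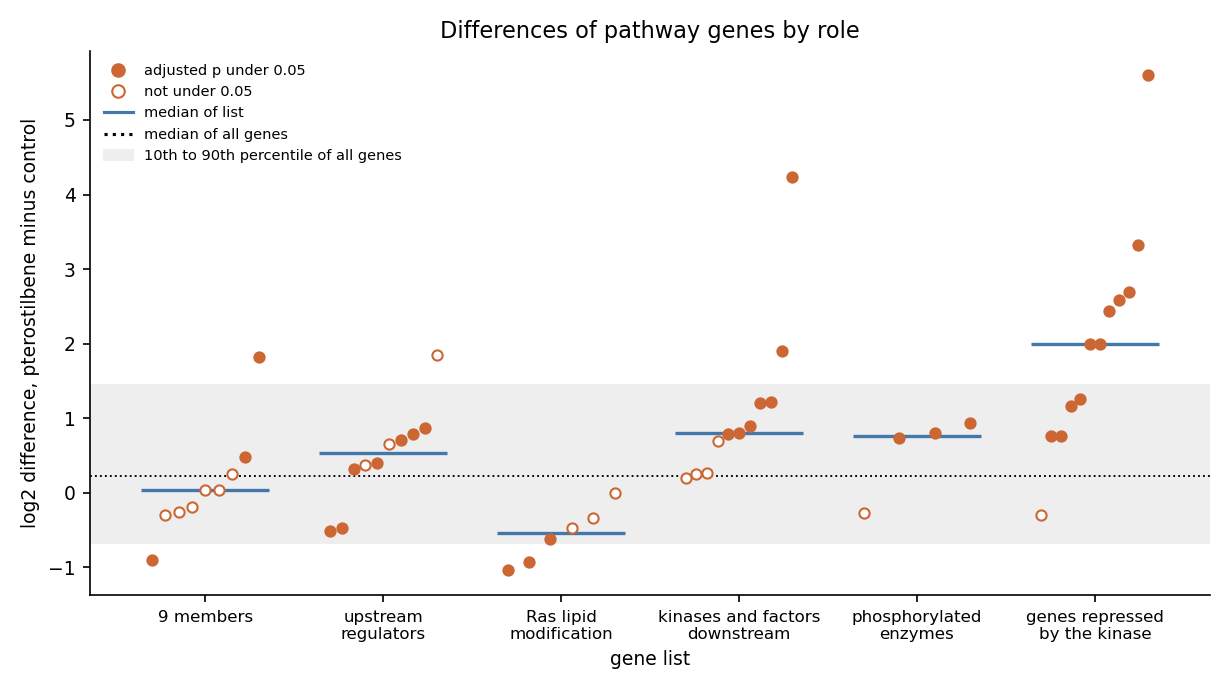
Log2 difference, pterostilbene minus control, of each gene in 6 lists, filled where the adjusted p was under 0.05, with a bar at each list's median, a dotted line at the median of all genes and a grey band from their 10th to 90th percentile. List medians run from -0.54 for the genes of Ras lipid modification to 2.0 for the genes repressed by the kinase, and the 9 members are centred on 0.04.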

How the data were processed

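RNA from 6 yeast cultures had been labelled and hybridized by the authors to the Yeast Genome S98 array. The deposited values are linear intensities, 1 signal per probe set and array, normalized by the authors with Affymetrix software (GCOS 1.1 in the submitters' notes). The summarisation algorithm and scaling target are not given in the sources used here. All 6 value columns were used. Before taking log2, 23 zero signals were set to the lowest positive value, 0.1, and 60 control probe sets were set aside. Symbols came from the platform annotation, which gave 1 gene for 6504 of the tested probe sets, several for 328 and none for 2443. The group difference was fitted in R 4.3.3 with limma 3.58.1 (lmFit and eBayes, Benjamini-Hochberg adjustment, threshold 0.05), and gene pairs by an exact permutation test. The method was tested on simulated data. The members, the gene lists and the rule for named genes were chosen by known role with earlier results of these data known. Named were all members, up to 4 leading genes a list and direction, and the 3 genes most like *PDE2* and *RAS1*. Genes beyond this were named after their values were seen. Alternatives covered scaling, low values, test, moderation, array weights, pairing, probe sets and each array left out. The number of arrays limits the precision. Detection calls were not analysed here.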

Additional observations from a re-analysis of the deposited data

How the results depend on the processing

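The members' counts changed with the scaling. Against 2 higher and 1 lower with the signals as deposited, quantile normalization gave 1 higher and 4 lower, median centring 1 and 6, and reference gene centring 4 and 1. Over all genes these scalings gave 21.6%, 19.3% and 50.6% higher and 30.4%, 39.0% and 11% lower. A floor at a signal of 22.7 gave 2 lower, as did leaving out the dimmest 25% of probe sets. The methods' t-test gave 1 higher and 2 lower, and array weights, which were largest for pterostilbene B, gave 3 lower. Leaving out each array gave 1 to 2 higher and 0 to 1 lower. The replicate letters did not pair the arrays, since same-letter deviations correlated at -0.04 to -0.01, and with the letter as a replicate block 1 member was higher and 0 lower, with an adjusted p of 0.072 for *RAS1* and 0.091 for *PDE1*. Over 18 alternatives, *PDE2* kept its call in 18, *RAS1* in 13 and *PDE1* in 9, and *TPK3* was lower in 6, median centring (adjusted p = 0.0016) and the dimmest 25% left out (0.045) among them. Signs turned only in members that had not passed. *RAS2* (0.07) and *TPK2* (0.0049) turned after reference gene centring. *CYR1* turned after quantile normalization (-0.062), median centring (-0.20) and probe set averaging (-0.30). *BCY1* turned after quantile normalization (-0.11) and median centring (-0.41) and ran from -0.033 to 0.13 without single arrays, as *CDC25* did after quantile normalization (-0.46) and median centring (-0.41), and from -0.011 to 0.12. The ratio of *TPK3* to *TPK2* ran from -0.19 to 0.046 without single arrays and was -0.33 after quantile normalization. The cause of these changes was not tested. A pseudocount of 8.7, division by the array mean, trend and robust moderation, and averaged probe sets gave the same counts.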
